A study of Mus musculus with 3 samples.

Results

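The small leucine-rich proteoglycans examined here are 10 genes, *Aspn*, *Bgn*, *Dcn*, *Fmod*, *Lum*, *Ogn*, *Omd*, *Prelp*, *Podn* and *Ecm2*, chosen by symbol, and all 10 were found among the 15554 rows of the expression table of NIH3T3 cells. NIH3T3 is a mouse fibroblast cell line of embryonic origin. After serum starvation the cells received for 24 h no stimulus (CTRL), GDF15 (100 ng/mL) or TGF-β (4 ng/mL). RNA was pooled within each treatment and 1 library was sequenced per treatment, so that no difference between these libraries has a replicate or carries a p-value. The study also measured matrix genes, *Aspn*, *Bgn* and *Ogn* among them, by qRT-PCR and reported a dose-dependent increase by GDF15. For this it prepared 3 RNA samples per treatment, and it does not state that the sequenced pool came from other RNA. The qRT-PCR values were not analysed here. The question was how GDF15, a member of the TGF-β superfamily, changes fibroblast expression beside TGF-β itself. *Aspn*, *Bgn* and *Ogn* were among the genes that the study picked from these same libraries for their change by GDF15, so their rises are a description and no independent evidence.

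Small leucine-rich proteoglycans are secreted proteins of the extracellular matrix whose core is a curved array of leucine-rich repeats. Most of them bind collagen fibrils and set the diameter and spacing of the fibrils, and several of them bind TGF-β or signal through receptors at the cell surface. Decorin (*Dcn*) and biglycan (*Bgn*) carry chains of chondroitin or dermatan sulfate, whereas fibromodulin (*Fmod*) and lumican (*Lum*) carry keratan sulfate, and asporin (*Aspn*) usually carries no such chain. They are grouped in classes by sequence, with *Dcn*, *Bgn* and *Aspn* in class I, *Fmod*, *Lum*, *Prelp* and *Omd* in class II, *Ogn* in class III and *Podn* in class V. *Ecm2* encodes a related matrix protein with leucine-rich repeats. Fibroblasts are a main source of these proteins in connective tissue.

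The values are FPKM, the fragments per kilobase of transcript and per 1e6 mapped fragments, which allow levels of different genes to be compared. From the steps of low values the CTRL library held an estimated 18.7, the GDF15 library 21.8 and the TGF-β library 17.8 times 1e6 fragments. All 10 fibroblast markers examined reached a mean FPKM of 1, and they did not move alike. *Lox*, which crosslinks collagen, was 3.71-fold (GDF15) and 5.79-fold (TGF-β) of CTRL, and *Fbln2*, a matrix gene, 1.87-fold and 2.42-fold. *Col1a1* was 1.51-fold and 1.72-fold of CTRL, *Vim* 0.899 and 0.757, and *Pdgfra* 0.999 and 0.571. The 6 epithelial markers summed to between 0.268 and 0.735 FPKM in a library, the 4 endothelial markers to between 0.252 and 0.329, and the 5 leukocyte markers, mainly *Cd14* and *Cd68*, to between 6.27 and 7.46. Markers of tissues rich in these proteoglycans gave a mixed picture. The 7 cartilage markers summed to between 61.8 and 69.8 FPKM, mainly *Sox9* (59.4 to 68.0), with *Col9a1* at 0 in all libraries, *Acan* at 0.0128 or less and *Col11a2* at 1.56 or less. *Sox9* was at 0.873 of CTRL in GDF15 (95% counting interval 0.840 to 0.908) and 0.893 in TGF-β (0.857 to 0.931). *Comp*, another cartilage marker, was at 0.360 (CTRL), 0.989 (GDF15) and 1.39 (TGF-β), which is 2.75-fold (1.51 to 5.28) and 3.85-fold (2.14 to 7.33) of CTRL. The 4 tendon markers summed to 4.77 (CTRL), 7.20 (GDF15) and 6.44 (TGF-β), mainly *Mkx* at 4.26, 6.89 and 6.02, with *Tnmd* at 0. The 5 bone markers summed to 13.2, 9.29 and 9.43 in the same libraries, mainly *Runx2* at 6.77, 7.71 and 6.81 and *Bglap* at 6.38, 1.51 and 2.56, with *Ibsp* at 0. The part of these markers in the results below was not tested. In bulk RNA, fewer cells that express a gene and less RNA of it per cell cannot be told apart.

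The family covered a wide range of levels, and 5 of its 10 genes carried nearly all of its transcripts. In CTRL the order from the highest FPKM was *Dcn*, *Bgn*, *Prelp*, *Ogn*, *Aspn*, *Ecm2*, *Podn*, *Omd*, *Fmod* and *Lum*. *Dcn*, *Bgn* and *Prelp* together made up 98.1% of the summed FPKM of the 10 genes in CTRL, 96.7% with GDF15 and 97.4% with TGF-β. *Dcn* ranked 96 of all rows in CTRL and *Bgn* ranked 150. *Ecm2*, *Podn*, *Omd*, *Fmod* and *Lum* each had a mean FPKM below 1. Neighbours in the order *Ecm2*, *Podn* and *Omd* in CTRL (0.669, 0.648 and 0.483) rested on an estimated 42.4, 36.0 and 18.5 fragments. The counting intervals of these fragments overlapped between *Ecm2* and *Podn* and between *Podn* and *Omd*. Those of *Ecm2* (30.3 to 56.8) and *Omd* (10.7 to 28.4) did not. Fragments are not scaled to transcript length, so these intervals do not settle the order.

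**Figure D1:**
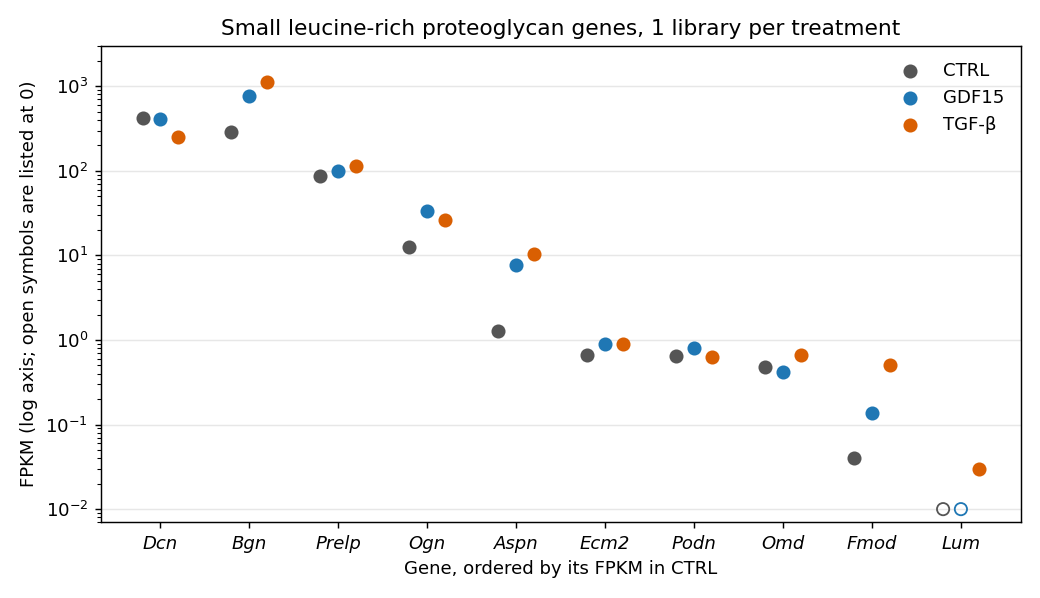
FPKM of the 10 genes (log axis) in the CTRL, GDF15 and TGF-β libraries, 1 point per library, with open symbols for values listed at 0. *Dcn* and *Bgn* lie above 200 in every library and exchange places between CTRL and the stimulated libraries, and *Lum* is listed at 0 in CTRL and GDF15.

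The study used a change over 2-fold as its criterion. Applied here as an absolute difference over 1 in log2(FPKM + 1), a pseudocount chosen for this work, 3 of the 10 genes (*Aspn*, *Bgn* and *Ogn*) were higher in GDF15 than in CTRL, where 0.212% of all 15554 rows were. The same 3 genes were higher in TGF-β than in CTRL, where 0.579% of all rows were. No gene of the family was over 2-fold lower in either comparison (0 of 10, beside 0.0772% of all rows by GDF15 and 0.334% by TGF-β). Because the study selected these 3 genes by their change by GDF15, the count by GDF15 is not a result about the family. Both comparisons share the CTRL library. Between the stimulated libraries, 0 of the 10 genes differed over 2-fold (0.0836% of all rows were higher in TGF-β and 0.0193% higher in GDF15). The median change of the 10 genes on the log2 scale was 0.16 (GDF15) and 0.28 (TGF-β), beside 0 over all rows in both comparisons. These medians include the 3 selected genes and are given as a description. Of the 9226 rows whose mean FPKM reached 1, 0.347% were over 2-fold higher and 0.13% lower in GDF15 than in CTRL, 0.932% higher and 0.553% lower in TGF-β than in CTRL, and 0.13% higher and 0.0325% lower in TGF-β than in GDF15. Without a replicate, each change is set against a local spread, the deviation of changes (median absolute, scaled) among the 501 genes of most similar mean FPKM, which describes genes and not repeats of the experiment.

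**Figure D2:**
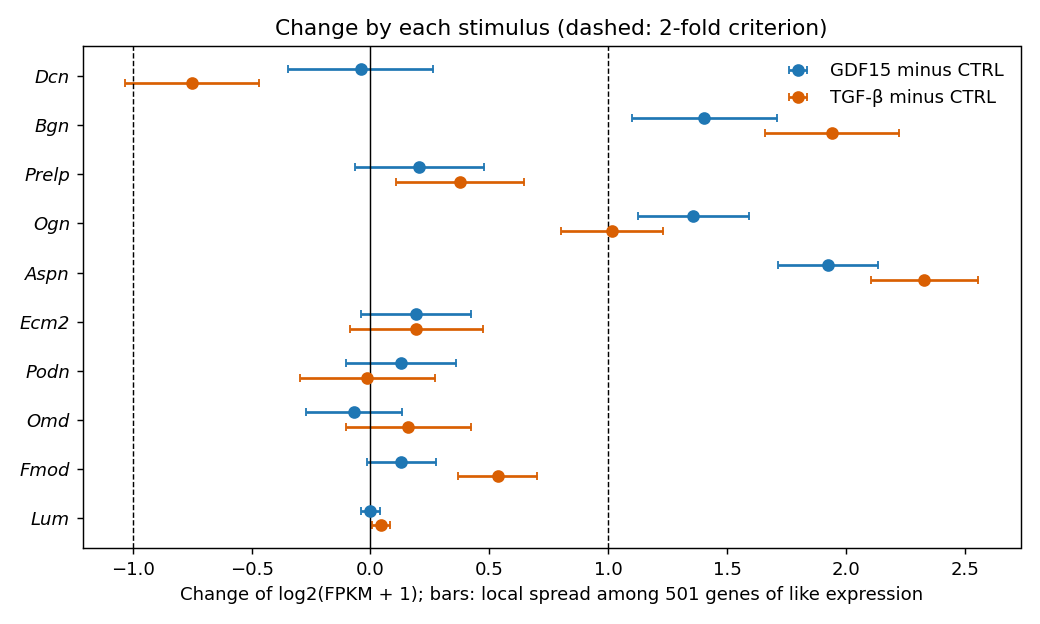
Change of log2(FPKM + 1) of each gene in GDF15 and in TGF-β relative to CTRL, with bars for the local spread among 501 genes of like expression (not a replicate error) and dashed lines at the 2-fold criterion. *Aspn*, *Bgn* and *Ogn* lie beyond the line on the right, and *Dcn* lies at -0.75 in TGF-β.

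Among the class I genes, *Bgn* and *Aspn* were higher with both stimuli, whereas *Dcn* was at the CTRL level in GDF15 and lower in TGF-β. *Bgn* (ENSMUSG00000031375, chromosome X of GRCm38, 73483602 to 73495933, plus strand) encodes biglycan, which binds collagen and, when released from the matrix, activates Toll-like receptors. CTRL had an FPKM of 290.3, GDF15 one of 769.6 and TGF-β one of 1117. CTRL was the lowest and TGF-β the highest library, and *Bgn* moved from rank 150 of all rows in CTRL to rank 35 in GDF15 and rank 22 in TGF-β. It was 2.65-fold higher in GDF15 (95% counting interval 2.60 to 2.71) and 3.85-fold higher in TGF-β (3.77 to 3.93) than in CTRL. These intervals are exact and conditional on the estimated numbers of fragments, here 12037, 37217 and 44169, and cover counting error only. The change was 1.40 by GDF15 (local spread 0.30) and 1.94 by TGF-β (local spread 0.28). TGF-β exceeded GDF15 by 0.54 on the log2 scale, beside a local spread of 0.17 for that comparison.

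*Aspn* (ENSMUSG00000021388, chromosome 13, 49544443 to 49567565, plus strand) encodes asporin, which binds collagen and TGF-β and carries a run of aspartate residues near its start. It had the largest change of the family under this scale, from a low level. The FPKM of the CTRL library was 1.29, that of GDF15 7.70 and that of TGF-β 10.5, which correspond to an estimated 51.4, 357 and 399 fragments. CTRL was the lowest and TGF-β the highest library. The level in GDF15 was 5.96-fold that in CTRL (95% counting interval 4.47 to 8.22) and the level in TGF-β 8.13-fold (6.12 to 11.2), with TGF-β at 1.36-fold of GDF15 (1.18 to 1.58), a difference of 0.40 on the log2 scale beside a local spread of 0.17. On the log2(FPKM + 1) scale, which understates changes at this level, the changes were 1.92 and 2.33, beside local spreads of 0.21 and 0.22. In the annotation, *Aspn* shares 7 exonic bases with *Cenpp* on the opposite strand. *Cenpp*, a centromere protein gene, stood at 4.33 (CTRL), 3.82 (GDF15) and 2.96 (TGF-β) FPKM. Its ratio to CTRL was 0.883 in GDF15 (95% counting interval 0.642 to 1.24) and 0.684 in TGF-β (0.473 to 0.999).

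*Dcn* (ENSMUSG00000019929, chromosome 10, 97479609 to 97518143, plus strand) encodes decorin, which binds collagen fibrils and TGF-β. *Dcn* stood at an FPKM of 419 in CTRL and 408 in GDF15, and at 249 in TGF-β. CTRL and GDF15 were alike and TGF-β was the lowest. The level in GDF15 was 0.973 of that in CTRL (95% counting interval 0.949 to 0.997), a difference of -0.04 on the log2 scale beside a local spread of 0.30, and its sign depended on the scaling. The level in TGF-β was 0.594 of CTRL (0.577 to 0.612) and 0.611 of GDF15 (0.593 to 0.629). These differences were -0.75 and -0.71 on the log2 scale, short of the 2-fold criterion. Less the median change of genes of like expression, and in units of the local spread, they were -2.25 and -4.49. The estimated fragments were 12203, 13841 and 6912.

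The makeup of the family's transcripts differed between the libraries. The ratio of *Bgn* to *Dcn* FPKM was 0.693 (CTRL), 1.89 (GDF15) and 4.49 (TGF-β). A ratio within a library does not depend on the scaling between libraries. *Dcn* was the most abundant gene of the family in CTRL, with 51.6% of the summed FPKM of the 10 genes, and it made up 30.9% in GDF15 and 16.4% in TGF-β. *Bgn* made up 35.7%, 58.2% and 73.6% in the same order. The summed FPKM of the 10 genes was 812 (CTRL), 1321 (GDF15) and 1519 (TGF-β), which is 0.245%, 0.431% and 0.489% of the FPKM of all rows. *Prelp* made up 10.7%, 7.58% and 7.43%, *Ogn* 1.56%, 2.57% and 1.75%, and *Aspn* less than 1% of the sum in each library.

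**Figure D3:**
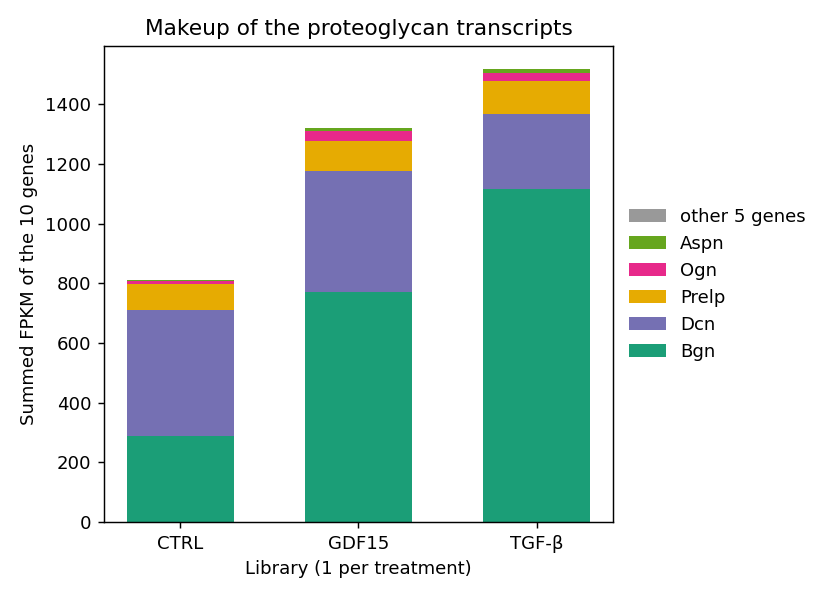
Stacked FPKM of the 10 genes in each library, 1 bar per treatment, with *Bgn* at the base and the 5 genes of low level too small to be seen at the top. The *Bgn* part grows from 290.3 to 1117 FPKM, while the *Dcn* part is 419 in CTRL and 249 in TGF-β.

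The class II genes differed in level by several orders of magnitude, and none passed the 2-fold criterion. *Prelp* (ENSMUSG00000041577, chromosome 1, 133910304 to 133921414, minus strand) encodes prolargin, which anchors basement membranes to the underlying connective tissue. Its FPKM values were 86.8 (CTRL), 100.2 (GDF15) and 113 (TGF-β). CTRL was the lowest and TGF-β the highest. The 95% counting interval of the ratio to CTRL was 1.11 to 1.20 in GDF15 and 1.26 to 1.35 in TGF-β. The changes were 0.20 by GDF15 and 0.38 by TGF-β, which, less the median change of genes of like expression, were 1.10 and 1.66 times the local spread. An antisense gene, *Gm15851*, shares 350 of the 3615 exonic bases of *Prelp*, and reads of both cannot be told apart where counting ignored the strand.

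*Fmod* (ENSMUSG00000041559, chromosome 1, 134037254 to 134048277, plus strand) encodes fibromodulin, which binds collagen and TGF-β. Its FPKM values were 0.0402 (CTRL), 0.138 (GDF15) and 0.506 (TGF-β), and the estimated fragments were 2.19, 8.78 and 26.3. All 3 values are low, with CTRL under 3 fragments and TGF-β the highest. The ratio of TGF-β to CTRL was 12.6 with a 95% counting interval of 3.41 to 119, and that of TGF-β to GDF15 was 3.67 (1.60 to 8.57). The ratio of GDF15 to CTRL was 3.43, and its interval of 0.799 to 36.7 includes 1. With the pseudocount of 1 the changes of *Fmod* were 0.13 by GDF15 and 0.53 by TGF-β, and the call of the 2-fold criterion turned with the pseudocount. At a pseudocount of 0.1 the change by TGF-β was 2.11.

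*Omd* (ENSMUSG00000048368, chromosome 13, 49582462 to 49592822, plus strand) encodes osteomodulin, a keratan sulfate proteoglycan of bone. Its FPKM values were 0.483 (CTRL), 0.414 (GDF15) and 0.657 (TGF-β), from an estimated 18.5, 18.5 and 24.0 fragments. A difference was not detectable at this depth, since the ratio of TGF-β to CTRL was 1.36 with a counting interval of 0.728 to 2.73. *Lum* (ENSMUSG00000036446, chromosome 10, 97565128 to 97572703, plus strand) encodes lumican, a collagen-binding proteoglycan best known from the cornea. It was listed at 0 in CTRL and GDF15 and at 0.0299 in TGF-β, about 1.20 fragments. The exact 95% Poisson limit for a count of 0 is 3.69 fragments, so that no difference was detectable for *Lum*.

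*Ogn* (ENSMUSG00000021390, chromosome 13, 49608046 to 49624501, plus strand) is the class III gene of the list and encodes osteoglycin, also called mimecan. The FPKM of *Ogn* was 12.6 without stimulus, 33.9 with GDF15 and 26.6 with TGF-β. It differed from *Aspn* and *Bgn* in that the GDF15 library was the highest. The level in GDF15 was 2.68-fold that in CTRL (95% counting interval 2.44 to 2.96) and the level in TGF-β 2.10-fold (1.90 to 2.33). TGF-β was at 0.783 of GDF15 (0.726 to 0.845), a difference of -0.34 on the log2 scale beside a local spread of 0.15. The change by TGF-β, 1.01, lay just over the criterion, and it was 0.86 once a trend in transcript length and GC was subtracted. The ratio of *Ogn* to *Aspn* FPKM was 9.77 (CTRL), 4.40 (GDF15) and 2.53 (TGF-β).

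*Podn* (ENSMUSG00000028600, chromosome 4, 108014791 to 108096445, minus strand) encodes podocan, with FPKM values of 0.648 (CTRL), 0.803 (GDF15) and 0.633 (TGF-β). *Ecm2* (ENSMUSG00000043631, chromosome 13, 49504810 to 49532789, plus strand) stood at 0.669, 0.905 and 0.908 in these libraries. Both genes rested on an estimated 33.5 to 67.0 fragments in a library. Their changes, between -0.01 and 0.19, were within the local spreads of 0.23 to 0.28, and the counting intervals of their ratios to CTRL all included 1, as for *Ecm2* in TGF-β (ratio 1.36, interval 0.902 to 2.10). These intervals do not show that the levels were alike.

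The genes of the family lie in groups in the genome, which the choice by symbol did not use. *Ecm2*, *Aspn*, *Omd* and *Ogn* follow each other on the plus strand of chromosome 13 within 119692 bases, separated by 11653, 14896 and 15223 bases, and all 4 lie inside the span of *Cenpp* on the minus strand (49464023 to 49652785). In this order their changes by GDF15 were 0.19, 1.92, -0.07 and 1.36, and by TGF-β 0.19, 2.33, 0.16 and 1.01. *Ecm2* and *Omd* were too low for this scale to show a 2-fold difference, and the counting interval of the ratio to CTRL reached 2.06 for *Ecm2* by GDF15, 2.10 for *Ecm2* by TGF-β and 2.73 for *Omd* by TGF-β. That of *Omd* by GDF15 ran from 0.450 to 1.83, which includes a level 2-fold lower but not 2-fold higher. Whether they differ from *Aspn* and *Ogn* in response was not tested. On chromosome 10, *Dcn*, *Lum*, *Kera* and *Epyc* span 202846 bases. *Dcn* was among the most abundant transcripts of the cells, whereas *Kera* was listed at 0 in CTRL and GDF15 and at 0.0321 in TGF-β, and *Epyc* was at or near 0 in all libraries. On chromosome 1, *Prelp* was at 86.8 to 113 FPKM, and its neighbour *Optc*, 2304 bases away, was listed at 0 in all 3 libraries.

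**Figure D4:**
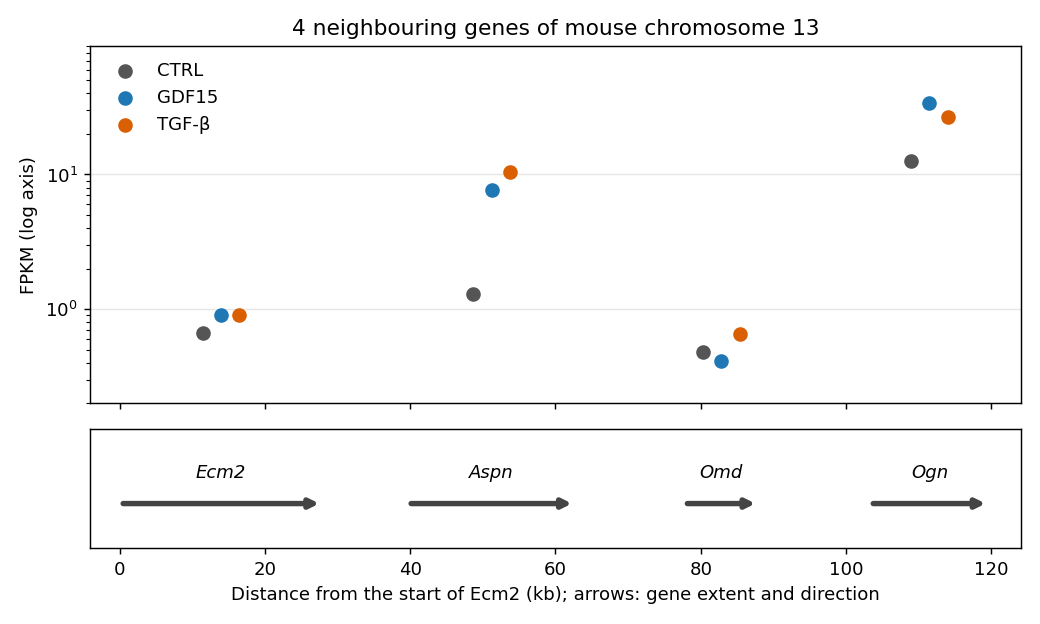
FPKM (log axis, upper panel) of *Ecm2*, *Aspn*, *Omd* and *Ogn* in the 3 libraries at their position along chromosome 13, and the extent and direction of each gene (lower panel) as the distance in kb from the start of *Ecm2*. The CTRL point stands below both stimulated points by more than 2-fold for *Aspn* and *Ogn*, whereas the points of *Ecm2* and *Omd* lie below an FPKM of 1.

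The 250 bases before the RefSeq start sites of these 4 neighbours and of *Bgn* are shown to set the 2 neighbours over 2-fold, and *Bgn* from another chromosome, beside the 2 of low level. The sequences are from RefSeq (GRCm38.p6), 5′ to 3′ in the direction of the gene, where 8 of the 10 genes had an entry. Capitals mark the motifs searched on both strands, the TATA box TATAAA, the GC box GGGCGG and the Smad-binding core CAGAC.
Ecm2 (chr13:49504560-49504809, + strand): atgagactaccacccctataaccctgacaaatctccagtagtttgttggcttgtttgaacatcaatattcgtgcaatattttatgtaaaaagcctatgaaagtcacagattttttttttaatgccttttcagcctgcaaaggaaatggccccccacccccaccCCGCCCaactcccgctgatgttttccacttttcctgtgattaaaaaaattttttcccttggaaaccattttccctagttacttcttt
Aspn (chr13:49544193-49544442, + strand): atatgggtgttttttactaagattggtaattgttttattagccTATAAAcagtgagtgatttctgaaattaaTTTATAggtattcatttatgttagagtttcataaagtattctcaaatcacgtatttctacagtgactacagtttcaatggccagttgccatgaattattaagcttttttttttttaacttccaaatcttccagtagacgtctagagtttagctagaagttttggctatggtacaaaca
Omd (chr13:49582212-49582461, + strand): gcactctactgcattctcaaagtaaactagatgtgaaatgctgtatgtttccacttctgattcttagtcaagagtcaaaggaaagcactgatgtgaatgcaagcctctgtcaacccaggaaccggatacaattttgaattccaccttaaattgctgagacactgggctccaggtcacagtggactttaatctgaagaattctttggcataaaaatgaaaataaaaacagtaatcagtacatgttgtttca
Ogn (chr13:49607765-49608014, + strand): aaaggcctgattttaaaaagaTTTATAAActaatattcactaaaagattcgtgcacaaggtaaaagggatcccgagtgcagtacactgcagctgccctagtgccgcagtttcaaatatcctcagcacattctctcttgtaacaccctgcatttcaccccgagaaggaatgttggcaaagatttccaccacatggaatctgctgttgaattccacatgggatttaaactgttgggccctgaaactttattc
Bgn (chrX:73483351-73483600, + strand): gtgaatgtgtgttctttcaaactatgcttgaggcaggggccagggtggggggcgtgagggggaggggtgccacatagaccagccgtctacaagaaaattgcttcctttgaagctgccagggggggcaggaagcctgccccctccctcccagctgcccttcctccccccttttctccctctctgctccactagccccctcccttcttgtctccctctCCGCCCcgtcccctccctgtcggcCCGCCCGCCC
No CAGAC was found in these 5 windows, while 42.2% of all 32851 windows of the same length hold it. Among the other genes of the family it was found in the windows of *Fmod* (2 matches) and *Prelp* (1 match). TATAAA was found in the windows of *Aspn* (2 matches, at 207 and 178 bases before the start) and *Ogn* (2 matches at 229 and 227 bases, which overlap on opposite strands), and 12.4% of all windows hold it. GGGCGG was found in the windows of *Bgn* (3 matches, of which those at 10 and 6 bases overlap) and *Ecm2* (1 match). It was also found in 1 of the 2 windows of *Podn* (2 matches), and 32.7% of all windows hold it. The windows of *Aspn*, *Omd*, *Ecm2* and *Ogn* had a GC content of 30.0%, 38.4%, 40.0% and 42.0%, that of *Bgn* had 64.4%, and the median of all windows was 52.4%. A match describes letters in this window and not a bound site.

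Of 8 further genes of the family that were listed, 7 were in the table, and with the pseudocount of 1 none passed 2-fold in any comparison. *Tsku*, which encodes the secreted protein tsukushi, stood at 8.94 (CTRL), 8.23 (GDF15) and 11.4 (TGF-β) FPKM. TGF-β was the highest library, 1.27-fold of CTRL (95% counting interval 1.11 to 1.45) and 1.38-fold of GDF15 (1.21 to 1.57). *Podnl1*, the paralog of *Podn*, was at 4.89, 4.81 and 4.83 and thus more abundant than *Podn*. *Chad*, a cartilage protein gene, was at 0.258, 0.0316 and 0.155, and *Nyx* at 0.0312, 0.0134 and 0.131, both from at most 11.6 estimated fragments in a library. The ratio of GDF15 to CTRL was 0.123 for *Chad*, with a counting interval of 0.00272 to 0.953, and the ratio of TGF-β to CTRL was 4.20 for *Nyx*, with an interval of 1.13 to 23.2. *Chadl* was not analysed here.

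The machinery that builds, processes and senses these proteins was followed in lists of genes chosen by their role. Of the 22 listed genes for the linker and the chondroitin or dermatan sulfate chains, 20 were in the table, 16 reached a mean FPKM of 1, and 0 passed 2-fold with either stimulus. The median change of the 16 was 0.05 by GDF15 and -0.03 by TGF-β. *Chst12* (34.2, 31.4 and 31.8 FPKM in CTRL, GDF15 and TGF-β), a chondroitin 4-sulfotransferase, was the most abundant. By mean FPKM it was followed by *Chpf* (29.3, 30.9 and 28.9), a chondroitin polymerizing factor, and *Csgalnact1* (29.7, 31.1 and 26.8), which starts the chondroitin chain. *Dse*, the epimerase that turns chondroitin into dermatan sulfate, was at 13.9, 18.9 and 19.5. The lowest change by TGF-β was that of *Chst11*, another 4-sulfotransferase, whose FPKM was 23.7, 21.6 and 15.5 (change -0.58). *Dse* and *Chst11* are named here after their values were seen.

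Of the 6 listed genes for keratan sulfate chains, *B3gnt7*, *Chst1*, *Chst4* and *Chst5* were listed at 0 in all 3 libraries. *B4galt4*, a galactosyltransferase, was at 1.78, 2.05 and 2.99 FPKM, and *Chst2*, a sulfotransferase, at 2.32, 2.33 and 1.92. Of 10 listed genes that supply sugar nucleotides and sulfate, 9 were in the table, 7 of them higher than CTRL in each stimulated library, with a median change of 0.17 by GDF15 and 0.39 by TGF-β and 0 over 2-fold. The median by TGF-β was 0.21 once a trend in transcript length and GC was subtracted. Of all rows whose mean FPKM reached 1, 44.4% were higher in GDF15 and 37.2% in TGF-β than in CTRL. The most abundant was *Ugdh*, which makes UDP-glucuronic acid, at 72.6 (CTRL), 82.4 (GDF15) and 99.2 (TGF-β). *Ugp2*, which makes UDP-glucose, was at 22.9, 25.3 and 30.4, and *Papss1*, which makes the sulfate donor, at 22.2, 25.1 and 22.2. *Papss2*, its paralog, had the largest change of the list, 0.54 by GDF15 and 0.64 by TGF-β, and is named after its values were seen.

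Propeptides of biglycan and of other family members are removed by BMP1, and *Bmp1* was at 76.0 (CTRL), 67.4 (GDF15) and 59.0 (TGF-β), whereas *Pcolce*, whose product enhances that protease on collagen, was at 419, 377 and 404. Of 9 listed proteases that can cut these proteins, 6 reached a mean FPKM of 1 and 0 passed 2-fold. *Mmp2* was at 251.5, 285.6 and 242, *Mmp14* at 238, 214 and 164, and *Adamts1* at 37.4, 47.4 and 40.0. Of the others, named after their values were seen, *Adamts5*, an aggrecanase, was at 21.5, 34.0 and 33.6. *Mmp9*, a gelatinase, was at 1.60, 0.921 and 0.496, and its ratio of TGF-β to CTRL was 0.310 with a counting interval of 0.190 to 0.479, so that the pseudocount of 1 kept it from passing 2-fold. Of 10 listed receptors, 8 reached a mean FPKM of 1 and 0 passed 2-fold, with a median of 0.19 by GDF15 and 0.03 by TGF-β over the 8. *Lrp1*, an endocytic receptor of decorin, was at 158, 219 and 213, *Cd44*, reported as a receptor of asporin, at 45.6, 46.6 and 47.7, and *P2rx4* at 31.3, 26.6 and 27.8.

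Among 12 other proteoglycans of the matrix and cell surface, 4 reached a mean FPKM of 1, and all 4 were higher than CTRL in both stimulated libraries but under 2-fold, beside the same 44.4% and 37.2% of all such rows. *Hspg2*, which encodes perlecan, was at 121 (CTRL), 151 (GDF15) and 125 (TGF-β). Its change by TGF-β, 0.05, lay within the local spread of 0.28. *Cspg4* was at 60.8, 74.1 and 87.7. *Vcan*, which encodes the large chondroitin sulfate proteoglycan versican, was at 47.4, 80.0 and 81.1, with changes of 0.74 and 0.76. No gene of these lists passed the 2-fold criterion with the pseudocount of 1, beside 0.212% of all rows higher by GDF15 and 0.579% by TGF-β, so that a count of 0 in lists of this size is near the background. The pseudocount hides larger ratios of genes of low level, as it does for *Mmp9*, *Chad* and *Nyx*. *Prg4*, which encodes lubricin, was at 0.168 (CTRL), 0.505 (GDF15) and 0.964 (TGF-β) FPKM, 3.01-fold (95% counting interval 1.57 to 5.997) and 5.75-fold (3.10 to 11.1) of CTRL. *Chst15*, a chondroitin sulfotransferase, was at 0.131, 0.429 and 0.455, 3.26-fold (1.67 to 6.68) and 3.46-fold (1.75 to 7.15) of CTRL. *Chst3*, another chondroitin sulfotransferase, was at 2.92-fold (1.03 to 10.1) and 3.99-fold (1.44 to 13.7) of CTRL, and the ratio of GDF15 to CTRL of *Spock2*, a testican gene, was 0.123 (0.00217 to 0.688).

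**Figure D5:**
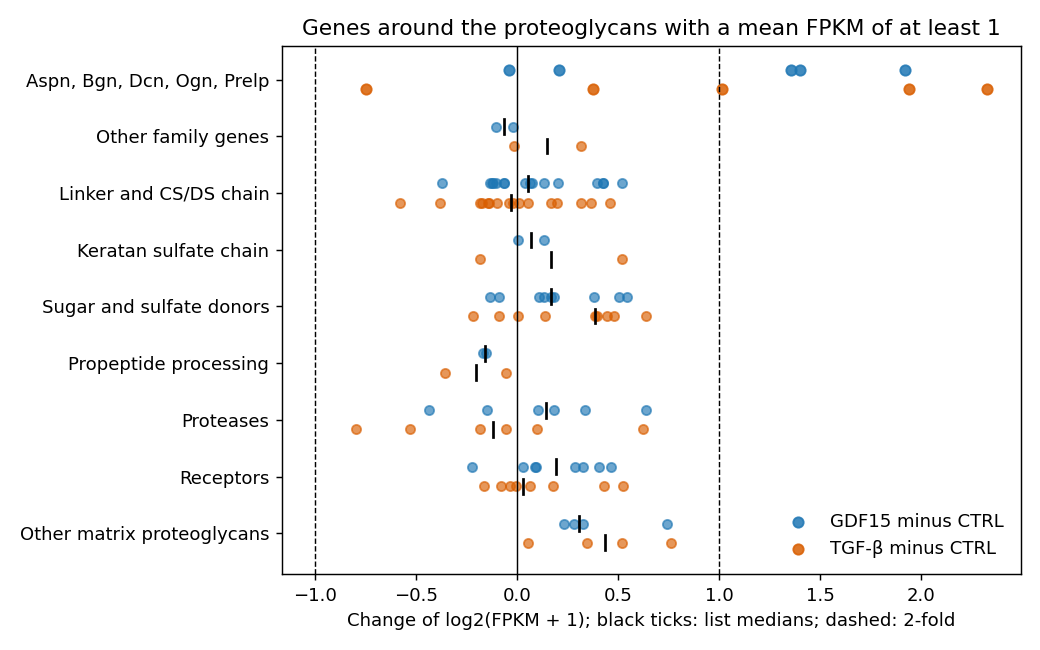
Change of log2(FPKM + 1) by GDF15 and by TGF-β for genes whose mean FPKM reached 1, 1 point per gene, for *Aspn*, *Bgn*, *Dcn*, *Ogn* and *Prelp* in the top row and for 8 lists of related genes below, with black ticks at the list medians and dashed lines at 2-fold. All points of the 8 lists lie between the dashed lines, and only *Aspn*, *Bgn* and *Ogn* lie beyond.

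Genes with the most similar pair of changes, by Euclidean distance over the changes by GDF15 and by TGF-β in these 3 libraries, were found among rows with a mean FPKM of at least 1. Nearest to *Aspn* were *Mfap4* (distance 0.11), *Acta2* (0.19) and *Lox* (0.20). *Mfap4* was at 0.0816 (CTRL), 3.43 (GDF15) and 4.53 (TGF-β) FPKM, so that it reached the minimum mean only through the stimulated libraries. Near *Bgn* were *Itga11* (0.19) and *Tagln* (0.30). Nearest to *Ogn* were *Fam198b* (0.25), *Pcdh18* (0.31) and *Hspb2* (0.33). *Hspb2*, at 0.336 (CTRL), 1.80 (GDF15) and 1.42 (TGF-β), likewise reached the minimum mean only through the stimulated libraries. The distances use log2(FPKM + 1), which understates changes of low genes. The likeness of genes of low level, such as *Mfap4* and *Hspb2*, therefore depends on the pseudocount. Nearest to *Dcn*, added after its values were seen, were *Dtx4* (0.03), *C1rb* (0.04) and *Snai2* (0.05). A distance depends on how many genes have changes of that size, so distances are not compared between members. *Snai2*, a transcription factor gene, was at 43.2 (CTRL), 41.9 (GDF15) and 26.2 (TGF-β).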

How the data were processed

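NIH3T3 RNA was pooled within each treatment and 1 stranded mRNA library per treatment was sequenced in single-end mode. The authors deposited FPKM from Cufflinks, kept only for genes whose protein is reviewed in UniProt. The submitters' processing notes name TopHat 1.3.2, Bowtie 0.12.9, Cufflinks 2.0.2 and mm10. The gene annotation and the use of strand in counting are not given in the sources used here.

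Libraries were grouped by the labelled stimulation. Changes are differences of log2(FPKM + 1), which understate changes of low genes, and the study's criterion of 2-fold was applied on this scale, without a test. The members and lists were chosen with earlier results of these data known. The genes named are the members, other genes of the family, list genes over 2-fold or, failing these, up to 3 with the highest mean FPKM, and the 3 genes nearest in pattern to each member over 2-fold, of which 1 is not reported here. *Cenpp* is named because it overlaps members. Markers of other cell types, and other genes outside this rule, were chosen for naming after their values were seen.

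Depth was estimated from 2077 genes with 1 transcript in GENCODE M21 (GRCm38), where FPKM times length less 200 bases clusters at whole fragments. The relative depth of GDF15 to CTRL was 1.17 by length and 1.17 from the ratios of low values alone, and that of TGF-β 0.954 and 0.953. Of low values, 66.7% to 73.9% lay within 0.1 of a whole fragment. Fragments per gene use the longest coding transcript and are estimates. Intervals are exact Poisson or conditional binomial at 95%, and the floor was 3 fragments. Of the rows, 15474 were matched to GENCODE, 749 of them by an older symbol. The depth estimate, local spread, trend removal and calls were tested on simulated data. In a simulation of GDF15 against CTRL with 14627 genes, 200 of 200 genes changed 4-fold up or down were recovered and 1 unchanged gene passed 2-fold. The changed genes were drawn only from mean levels above that of *Aspn*, and the simulated noise was counting error alone. The recovery therefore does not cover genes of low level, smaller changes or variation between libraries.

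The alternatives were pseudocounts of 0.5, 0.1 and none, only rows whose mean FPKM reached 1, a shared upper quartile or FPKM sum, and subtraction of a trend in expression or in transcript length and GC. Software was matplotlib 3.10.9, scipy 1.17.1, pandas 2.3.3, numpy 2.4.6 and Python 3.11.15.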

Additional observations from a re-analysis of the deposited data

How the results depend on the processing

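No paired analysis was possible because there is only 1 pooled library per treatment, which also means that none could be left out. Under the 8 alternatives *Aspn* and *Bgn* stayed over 2-fold with both stimuli, and *Ogn* with GDF15. With TGF-β, *Ogn* fell short (0.86) once a trend in transcript length and GC was subtracted, which left 2 genes of the family over 2-fold in that comparison. *Fmod* passed 2-fold by TGF-β at a pseudocount of 0.1 (2.11) and without a pseudocount (3.65), and by GDF15 without a pseudocount (1.78). Against GDF15, 1 gene of the family, *Fmod*, was over 2-fold higher in TGF-β at a pseudocount of 0.1 and without one. The change of *Dcn* by TGF-β stayed between -0.80 and -0.63, and that by GDF15 between -0.06 and 0.11. Of 222 changes of single genes of the family recomputed in this way, 197 moved by less than the local spread and 25 moved by more. The median change of the family by GDF15, 0.16 over the 10 genes, was 0.44 without a pseudocount, where *Lum* drops out. With a minimum mean FPKM of 1 it was 1.36 by GDF15 and 1.01 by TGF-β over the 5 genes left, of which the study had selected 3.

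Among the listed genes, none over 2-fold at the pseudocount of 1, the further family genes had 1 by GDF15 at 0.1 and 2 without a pseudocount, the chain genes 1 and 2, the other proteoglycans 1 and 2, and the proteases 0 and 1. By TGF-β, the further family genes had 0 and 1, the chain genes 1 and 2, and the other proteoglycans and the proteases 1 each at 0.5, at 0.1 and without one. Over all rows, the counts past 2-fold varied with the pseudocount. By GDF15, 26 rows were lower at 0.5, 139 higher and 176 lower at 0.1, and 252 higher and 337 lower without a pseudocount. By TGF-β, 80 were lower at 0.5, 243 higher and 246 lower at 0.1, and 417 higher and 372 lower without one. Between TGF-β and GDF15, 21 were higher in TGF-β and 11 lower at 0.5, 125 and 102 at 0.1, and 309 and 216 without one, and 6 were lower once a trend in length and GC was subtracted. Depth limits *Fmod*, *Lum*, *Omd*, *Podn* and *Ecm2*, and the single library limits every gene.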
